A study of Mus musculus with 2 samples.

Results

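The genes described here are the 7 that encode the IL-36 cytokines and their receptor: the agonist genes Il1f6 (IL-36 alpha), Il1f8 (IL-36 beta) and Il1f9 (IL-36 gamma), the antagonist gene Il1f5 (IL-36Ra), Il1f10 (IL-38), and the receptor chain genes Il1rl2 and Il1rap. They were taken by symbol from the 31053 features of the count tables, and each of the 7 symbols matched 1 feature. The tables came from droplet single-cell RNA sequencing of full-thickness back skin of 2 C57BL/6 mice that were 12 months old, 1 wild type (WT) and 1 knock-in labelled Card14 KI +/+ (Card14KI). CARD14 is a scaffold protein of keratinocytes that activates NF-kB, and the series title names the knock-in mice as models of the scaling skin disease pityriasis rubra pilaris. The labels name neither the altered residue nor a driver, and the 2 animals shared strain, age and tissue. With 1 mouse per genotype there was no replicate check and no test, so each interval below is a 95% interval for counting error only. UMIs that lie in few cells vary more than such an interval says.

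The WT library held 5016 barcodes and 54816411 UMIs (unique transcript molecules), and the Card14KI library 3348 barcodes and 41460580 UMIs, with 2 barcode sequences in common. Filtering left 4161 and 2835 cells whose median depth was 7335 and 6875 UMIs. Each cell was placed in a class by its marker genes, none of which is an IL-36 gene. Keratinocytes of the epidermal layers were gated as basal (198 WT and 212 Card14KI cells), spinous (99 and 202) and granular keratinocytes (119 and 172). This is the order in which they differentiate towards the skin surface. The granular gate took precedence over that of the upper hair follicle, so the granular class can hold follicle cells with granular markers. The upper hair follicle gave 110 and 123 cells, and fibroblasts were the most numerous class with 2097 and 1328. The yield of each cell type depends on the tissue digestion and on the removal of dead cells, so these numbers are not shares of the skin. Levels are given as CPM, the UMIs of a gene divided by all UMIs of its class and scaled to a common total. A UMI counts the 3' end of 1 transcript whatever its length, so levels of different genes can be set side by side only as captured molecules.

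IL-36 alpha, beta and gamma are IL-1 family cytokines made mainly by epithelial cells. They bind the receptor chain IL1RL2, which then recruits the shared co-receptor IL1RAP and signals through MYD88 and IRAK kinases to NF-kB and MAP kinases. IL-36Ra binds IL1RL2 without recruiting the co-receptor and so blocks the agonists; in human skin, loss of this antagonist causes a pustular form of psoriasis. IL-38 is also reported to bind this receptor, and its role is less settled.

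The 5 ligand genes lay side by side on the plus strand of chromosome 2, within 140.66 kb (24153161 to 24293820, GRCm38). In order along the chromosome these were Il1f8 (ENSMUSG00000026985, 24153161 to 24160519), Il1f9 (ENSMUSG00000044103, 24186476 to 24193568), Il1f6 (ENSMUSG00000026984, 24215418 to 24225702), Il1f5 (ENSMUSG00000026983, 24276954 to 24283426) and Il1f10 (ENSMUSG00000046845, 24291196 to 24293820). Il1rl2 (ENSMUSG00000070942) lies on chromosome 1, 40324610 to 40367562, and Il1rap (ENSMUSG00000022514) on chromosome 16, 26581704 to 26730117, both on the plus strand.

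The RefSeq windows of 250 bases upstream of a start site (GRCm38.p6) covered 6 of the 7 genes, all but Il1f6. Those of Il1f8, Il1f9 and Il1f5 are shown, 5′ to 3′ on the plus strand, because among keratinocytes these neighbours were all highest in granular cells and yet differed between the libraries in different directions (values below). The windows are chr2:24152922-24153171 for Il1f8, chr2:24186226-24186475 for Il1f9 and chr2:24276704-24276953 for the first of the 2 listed starts of Il1f5. Capitals mark an AP-1 motif (TGANTCA, searched on both strands).
Il1f8: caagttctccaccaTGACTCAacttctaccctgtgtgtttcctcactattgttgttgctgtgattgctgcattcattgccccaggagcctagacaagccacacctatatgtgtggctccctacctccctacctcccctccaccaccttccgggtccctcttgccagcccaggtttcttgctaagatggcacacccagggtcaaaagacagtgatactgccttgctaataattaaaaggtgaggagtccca
Il1f9: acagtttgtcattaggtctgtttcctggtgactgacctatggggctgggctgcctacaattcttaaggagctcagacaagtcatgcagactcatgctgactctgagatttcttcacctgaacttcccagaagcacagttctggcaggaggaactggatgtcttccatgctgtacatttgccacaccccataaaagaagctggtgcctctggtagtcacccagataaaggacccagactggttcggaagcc
Il1f5: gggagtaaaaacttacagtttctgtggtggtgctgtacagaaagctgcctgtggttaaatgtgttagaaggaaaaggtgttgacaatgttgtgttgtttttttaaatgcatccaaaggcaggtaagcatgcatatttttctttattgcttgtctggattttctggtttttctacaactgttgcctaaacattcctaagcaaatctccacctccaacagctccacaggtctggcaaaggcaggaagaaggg
Il1f8 was the 1 member with a match to the AP-1 motif, TGACTCA, whose first base lies at position -236 from the start site. The same motif was found in 6.75% of 32851 promoter windows of this length. No member window held a match to the NF-kB consensus, which 5.001% of all windows held. These are matches of letters and not measured binding, and a missing match says only that the letters are not in these windows.

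With the gates, Il1f6 transcripts were almost confined to granular keratinocytes in both libraries, and their level there was higher in Card14KI. The WT granular cells held 1230 Il1f6 UMIs, or 338.7 CPM (320 to 358), and the Card14KI granular cells 3444 UMIs, or 732 CPM (708 to 757), a ratio of 2.16 (2.02 to 2.31). These cells carried 97.8% of all Il1f6 UMIs of kept WT cells and 97.3% of those of Card14KI cells. An Il1f6 UMI was detected in 71.4% of WT and 86.0% of Card14KI granular cells, a difference of 14.6 percentage points (5.15 to 24.4). Granular cells were deep, with a median of 28392 and 24921.5 UMIs, so each cell was also thinned to 2000 UMIs. The shares were then 37.3% and 52.8%, and the difference 15.5 points (3.67 to 26.6). Fibroblasts, taken as the background class for the ligand genes, had an Il1f6 UMI in 0.286% and 0.828% of cells at median depths of 7259 and 5588 UMIs.

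Expression of Il1f6 was uneven within the granular layer. The top cell held 119 of the 1230 UMIs in WT and 151 of the 3444 in Card14KI, and 50% of the UMIs lay in 11 of 119 and 22 of 172 cells. Without the top cell of each library the ratio was 2.28.

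Il1f9 also had most of its UMIs in granular cells, 85.8% in WT and 84.9% in Card14KI. Its level there was 171 CPM (158 to 185; 622 UMIs) in WT and 233 CPM (219 to 247; 1095 UMIs) in Card14KI, a ratio of 1.36 (1.23 to 1.502). A UMI was detected in 83.2% and 85.5% of granular cells, a difference of 2.27 points (-6.0 to 11.2), so the libraries differed in molecules but not detectably in positive cells. Il1f8 went the other way. In WT it was at 166 CPM (153 to 180; 603 UMIs) and in Card14KI at 120 CPM (111 to 131; 566 UMIs), and the ratio was 0.725 (0.645 to 0.814). It was detected in 70.6% and 64.5% of cells, and the interval of that difference included 0 (-6.05 points, -16.5 to 4.99).

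Il1f5, the antagonist gene, was the ligand gene with most captured molecules in granular cells. The WT cells were at 723 CPM (696 to 751; 2626 UMIs) and the Card14KI cells at 1006 CPM (977 to 1035; 4731 UMIs), which gave a ratio of 1.39 (1.33 to 1.46). A UMI was found in 85.7% and 93.0% of these cells, and in 58.5% and 71.2% after thinning, a difference of 12.7 points (1.45 to 23.8). Il1f10 stood at 113 CPM (102 to 125; 411 UMIs) and 154 CPM (143 to 166; 726 UMIs), with a ratio of 1.36 (1.21 to 1.54). An Il1f10 UMI was found in 54.6% and 48.3% of cells, and here too the interval of the difference included 0 (-6.37 points, -17.7 to 5.26). After thinning the shares were 17.8% and 19.0%, the other direction, with an interval that also included 0 (-8.27 to 10.1 points).

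Of the 7 members, 1 (Il1f6) was 1.5-fold or more higher in Card14KI granular cells and none was 1.5-fold or more lower. Among all 9924 genes with 10 or more UMIs in this layer, 19.0% were 1.5-fold or more higher and 8.23% lower, so the count of members was not above this background. The whole layer was shifted upward: the median log2 ratio over all genes was 0.09, and scaling by the median of ratios in place of CPM shifted the plain ratio of each gene by -0.16 on the log2 scale, a factor of 1.11. With that scaling 1361 genes were past this fold higher and 1132 lower, in place of 1890 and 817. The ratio was then 1.94 for Il1f6, 1.22 for Il1f9, 1.25 for Il1f5 and 0.651 for Il1f8, each in the same direction as before. With clusters in place of gates (66 and 74 granular cells), 6 of the 7 ratios were 1.5 or more: 2.33 for Il1f6, 1.64 for Il1f9, 1.89 for Il1f5, 1.83 for Il1f10, 2.37 for Il1rl2 and 1.61 for Il1rap. Il1f8 was at 0.930. The share of all genes past this fold was not computed for the clusters.

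**Figure D1:**
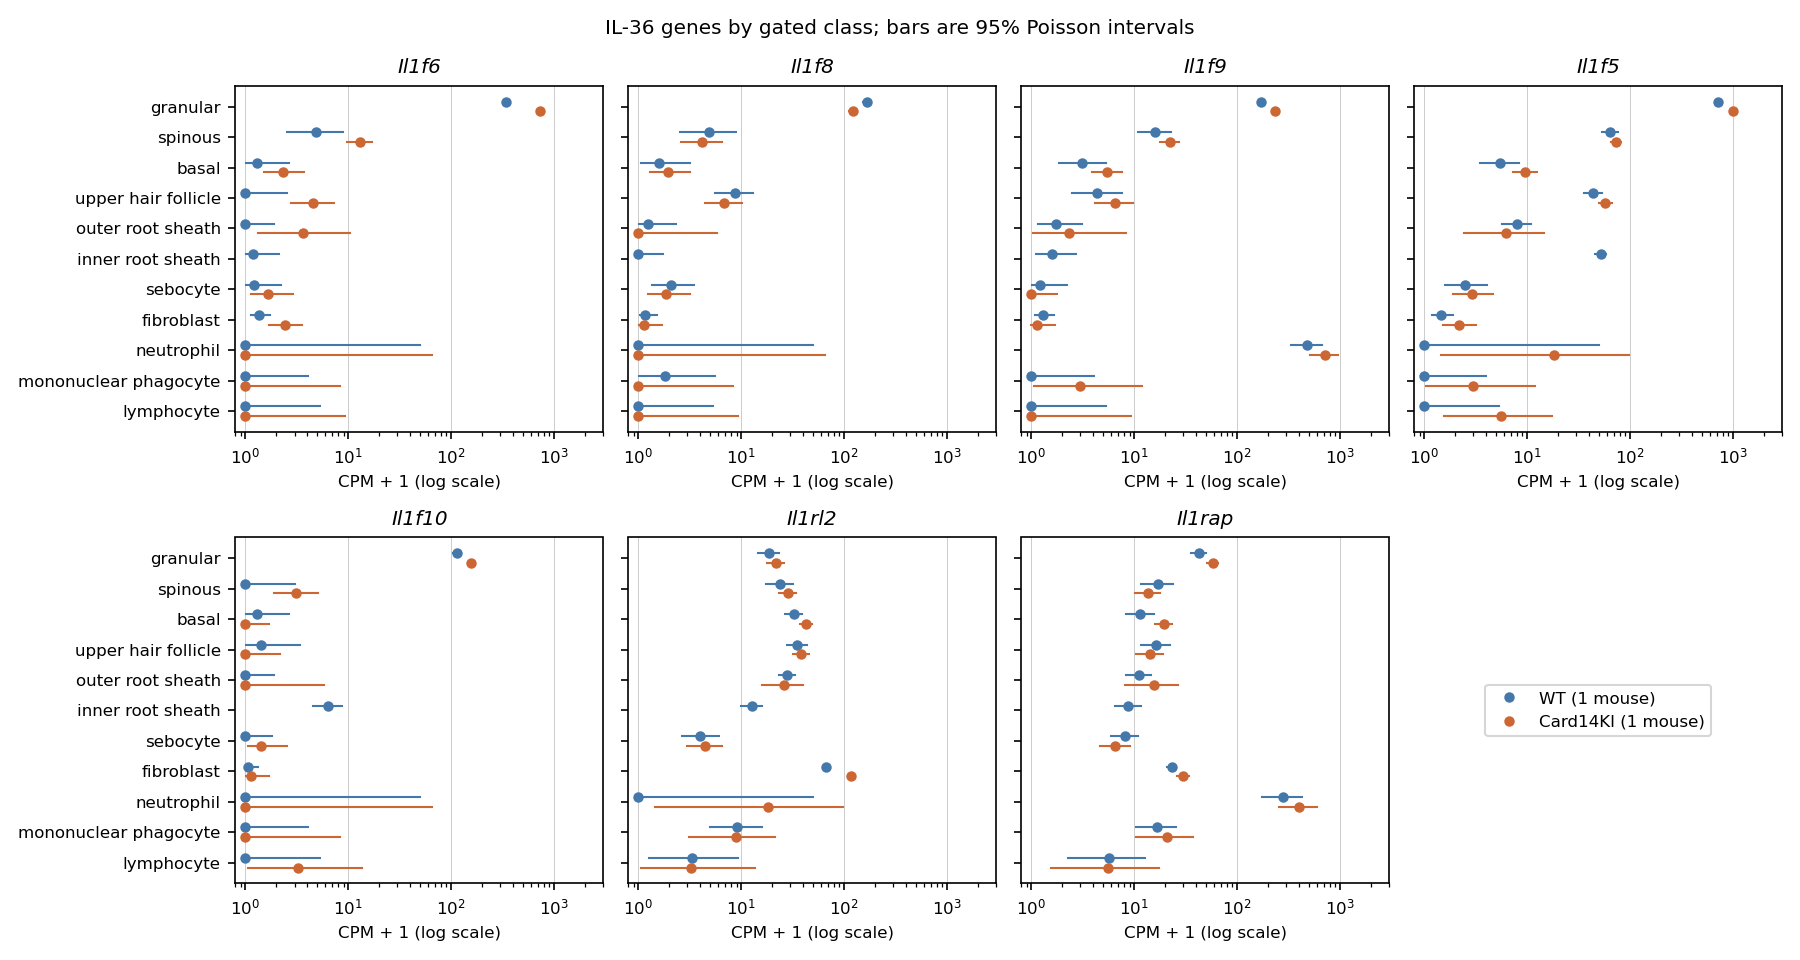
Level of each IL-36 gene (CPM + 1, log scale) in 11 gated classes, with 95% Poisson intervals; blue is the WT and orange the Card14KI library, and classes of under 10 cells are not drawn. The ligand genes peak in granular cells except Il1f9, which is highest in neutrophils, and Il1rl2 is highest in fibroblasts.

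The granular class did not hold the same marker levels in both libraries. The 10 granular markers summed to 86074 CPM in WT and 53100 CPM in Card14KI, with Lor at 37847 and 25515 CPM, Flg at 6755 and 3020 CPM, and Hrnr the other way at 2436 and 3584 CPM. Basal markers summed to 78.8 and 619 CPM in this class, and fibroblast markers to 287 and 25.9 CPM. Upper hair follicle markers summed to 9755 and 6324 CPM in it, against 1909 and 1875 CPM in spinous cells. Their part in the differences of the ligand genes was not tested. Cells were therefore also compared within ranges of the granular marker score, which runs from 0 to 1. Il1f6 climbed steeply along the score in both libraries and was higher in Card14KI in each granular range. At scores of 0.35 to 0.5 it was at 62.1 CPM (46.9 to 80.7) in WT and 222 CPM (197 to 249) in Card14KI, with intervals apart. In this range 1 cell held 28 of the 56 WT UMIs and 1 cell 46 of the 283 Card14KI UMIs, a spread between cells that these intervals leave out. At 0.5 to 0.6 the values were 187 and 688 CPM, and the top cells held 40 of 125 and 145 of 965 UMIs. At 0.6 and above the levels were 508 CPM (478 to 540) and 1084 CPM (1040 to 1131). The highest of these ranges held 66 of 119 WT and 79 of 172 Card14KI granular cells. With the same weight of each range in both libraries the Il1f6 ratio was 2.44. In spinous cells with scores of 0.1 to 0.2, by contrast, Il1f6 had 4 and 5 UMIs.

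Il1f5 also rose over the granular ranges and was higher in Card14KI in each of them, with intervals apart. At 0.35 to 0.5 it was at 403 CPM (362 to 447) in WT and 495 CPM (457 to 535) in Card14KI. At 0.5 to 0.6 the values were 687 and 1042 CPM, and at 0.6 and above 875 CPM (835 to 916) and 1303 CPM (1253 to 1353). The differences of Il1f9, Il1f8 and Il1f10 were less even over these ranges. In the lowest granular range Il1f9 stood at 64.4 and 78.3 CPM, where the intervals overlapped (48.9 to 83.2 and 63.7 to 95.2). They lay apart in the middle range, at 93.0 CPM (71.3 to 119) and 140 CPM (121 to 161). They also lay apart in the highest, at 243 and 395 CPM (222 to 265 and 368 to 423). Il1f8 was lower in Card14KI in the lowest granular range, at 51.1 CPM (37.4 to 68.1) against 17.2 CPM (10.8 to 26.1). In the middle range it was at 58.5 and 67.8 CPM and in the highest at 251 CPM (230 to 274) and 222 CPM (202 to 243), with overlapping intervals in both. With the same weights of the ranges the Il1f8 ratio was 0.862. Il1f10 was at 12.2 CPM (6.09 to 21.8) and 25.8 CPM (17.8 to 36.3) in the lowest range. The intervals overlapped there, and the top cells held 8 of 11 WT and 12 of 33 Card14KI UMIs. In the middle range it was at 118 CPM (93.8 to 148) and 80.6 CPM (66.4 to 96.9), where the intervals overlapped and 1 cell held 26 of the 79 WT UMIs. In the highest it was at 156 and 286 CPM. In spinous cells with a score of 0.2 to 0.35 Il1f5 was at 124 and 123 CPM, Il1f9 at 25.1 and 41.1 CPM and Il1f6 at 5.03 CPM (1.04 to 14.7) and 24.6 CPM (17.5 to 33.7).

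**Figure D2:**
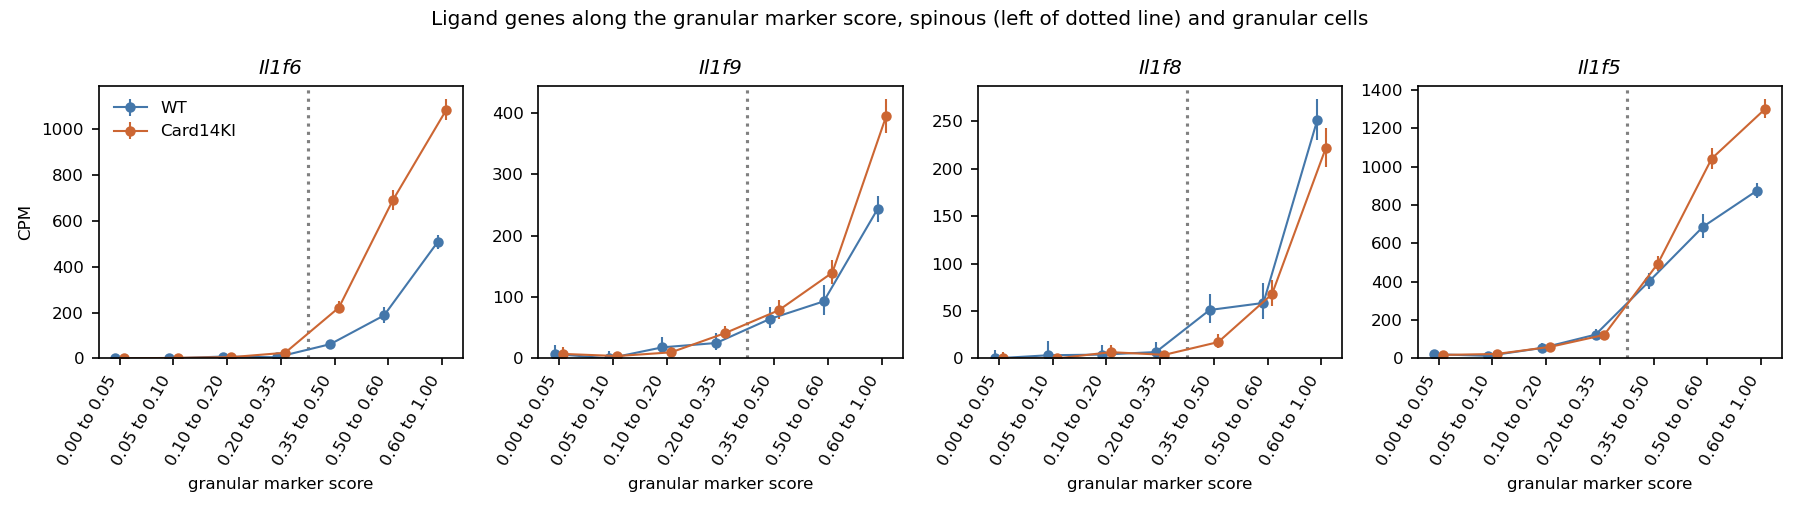
Level (CPM, linear axis, 95% Poisson intervals) of 4 ligand genes in spinous and granular cells sorted into 7 ranges of the granular marker score; the dotted line marks the granular gate at 0.35. Il1f6 and Il1f5 are higher in Card14KI (orange) than in WT (blue) in all 3 granular ranges. For Il1f8 the intervals lie apart only in the lowest of them, where Card14KI is lower.

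The mix of ligand transcripts differed as well. Of the 5081 UMIs of the 4 genes Il1f6, Il1f8, Il1f9 and Il1f5 in WT granular cells, Il1f6 made up 24.2% (23.0 to 25.4), and of the 9836 in Card14KI granular cells 35.0% (34.1 to 35.97). Il1f8 made up 11.9% and 5.75%, Il1f9 12.2% and 11.1%, and the antagonist gene Il1f5 51.7% (50.3 to 53.1) and 48.1% (47.1 to 49.1). The 3 agonist genes together made up 48.3% in WT and 51.9% in Card14KI, so the share of Il1f6 differed by more than that of all agonists. In spinous cells the agonists were 26.5% (19.7 to 34.1) of 155 UMIs in WT and 33.4% (28.9 to 38.2) of 416 UMIs in Card14KI, and Il1f5 was the rest. Upper hair follicle cells stood at 20.5% and 20.7%. These shares are ratios within a library and do not depend on its depth, but they are shares of captured 3' ends and not of protein.

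**Figure D3:**
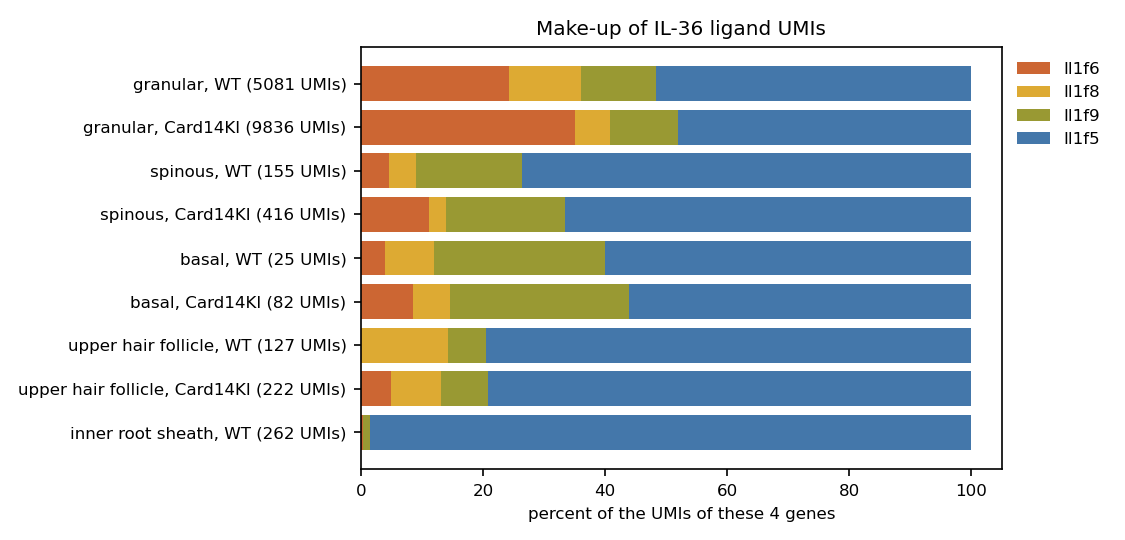
Each bar splits the UMIs of Il1f6, Il1f8, Il1f9 and Il1f5 in 1 class of 1 library into percent, with the number of UMIs beside its name. Il1f6 takes 24.2% in WT and 35.0% in Card14KI granular cells, and Il1f5 takes most of the bar in spinous and follicle cells.

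The agonist genes were found in the same granular cells. All 3 had a UMI in 66 of 119 WT cells (55.5%) and 99 of 172 Card14KI cells (57.6%), and none of them in 9 and 9 cells. Il1f6 and Il1f8 were detected together in 68 WT cells, where the product of their shares gives 60, and in 104 Card14KI cells, where it gives 95.5. The antagonist gene was found in 81 of the 85 Il1f6-positive WT cells and in 140 of the 148 Card14KI ones. Deep cells show more genes at once, so these counts describe the cells and show no link between the genes. A UMI of the receptor gene Il1rl2 was present in 31 of the 85 and 65 of the 148 Il1f6-positive granular cells.

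Below the granular gate ligand levels were low. In spinous cells Il1f6 was at 3.87 CPM (7 UMIs) in WT and 12.0 CPM (46 UMIs) in Card14KI, a ratio of 3.11 (1.39 to 8.16); 11 of the 46 UMIs came from 1 cell, and without the top cells the ratio was 2.77. Of the 46 UMIs, 39 lay in cells with a score of 0.2 to 0.35, next to the granular gate. With a granular score that leaves out Lce1c and Lce1m the spinous values were 3.71 and 5.07 CPM, a ratio of 1.37, which is not past 1.5-fold. With clusters in place of gates (90 and 207 spinous cells) they were 92.4 and 250.1 CPM. Il1f9 was then at 55.0 and 77.6 CPM and Il1f5 at 427 and 462 CPM, so the low spinous levels depended on the gates. With the gates, Il1f6 was the 1 of 6 members with 10 or more UMIs past 1.5-fold in this layer, in which 11.1% of 10082 genes were 1.5-fold or more higher and 9.15% lower. Spinous Il1f9 was at 14.9 and 21.2 CPM, Il1f5 at 63.1 and 72.5 CPM and Il1f8 at 3.87 and 3.14 CPM, all with intervals of the ratio that included 1. Il1f10 had 0 and 8 UMIs there. In basal cells 3 of 4 members with 10 or more UMIs were 1.5-fold or more higher, against 9.97% of 11811 genes (17.0% were lower). These were Il1f5 at 4.46 and 8.60 CPM (15 and 46 UMIs), Il1f9 at 2.08 and 4.49 CPM (7 and 24 UMIs; ratio interval 0.900 to 5.92) and Il1rap at 10.4 and 18.3 CPM. When clusters took the place of gates, which gave 438 WT and 150 Card14KI basal cells, the direction turned for Il1rap, with a ratio of 0.753. Spinous markers summed to 3876 CPM in WT and 8708 CPM in Card14KI basal cells and mononuclear phagocyte markers to 76.8 and 317 CPM, and their part in these values was not tested.

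Follicle cells carried mainly the antagonist gene. In the upper hair follicle Il1f5 was at 42.7 CPM (34.8 to 51.9) in WT and 56.6 CPM (48.5 to 65.6) in Card14KI, a ratio of 1.32; with clusters of 60 and 77 cells in place of the gate the ratio was 0.618, the opposite direction. Il1f6 had no UMI in 110 WT cells and 11 UMIs in 123 Card14KI cells, where 3 cells held at least 50% of them. With the WT value set to a floor of 3 counts the ratio was 2.79. The counting interval of the ratio, with 0 WT UMIs, starts at 1.91. Il1f8 was at 7.62 and 5.79 CPM with 18 UMIs in each library. In all, 2 of 6 members with 10 or more UMIs (Il1f6 and Il1f9) were 1.5-fold or more higher here, against 11.1% of 10900 genes (13.1% were lower). Il1f9 had 8 and 17 UMIs, and the interval of its ratio of 1.61 included 1 (0.660 to 4.32). In the inner root sheath, a sleeve of the growing hair with 147 cells in WT and 1 in Card14KI, Il1f5 reached 51.0 CPM (45.0 to 57.6; 258 UMIs in 71 WT cells). The 3 agonist genes together had 4 UMIs in these WT cells, and 23 of the 27 Il1f10 UMIs lay in 1 cell. No comparison between the libraries could be made for this class. In sebocytes, the lipid-making gland cells, every ligand gene had under 10 UMIs in each library, Il1rl2 was at 3.01 and 3.42 CPM and Il1rap at 7.10 and 5.56 CPM. None of the 3 members with 10 or more UMIs there was past 1.5-fold, where 8.60% of 11018 genes were higher and 9.57% lower.

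**Figure D4:**
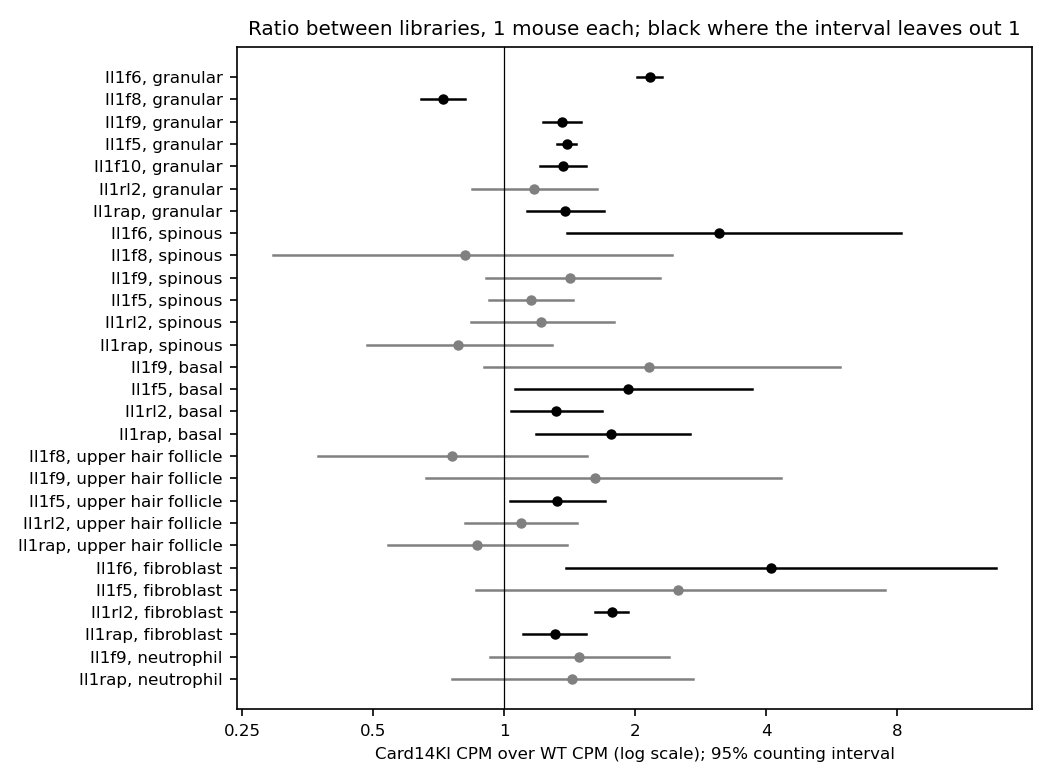
Ratio of Card14KI to WT CPM (log scale) with its 95% counting interval, for each gene and class with 5 or more UMIs in each library. Of the 28 ratios, 13 intervals lie above 1 and 1 lies below 1, that of Il1f8 in granular cells, without replicate error. The share of all genes with such intervals was not computed, so these counts have no background.

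Across the gated layers the receptor chain Il1rl2 did not follow its ligands. Among the 3 layers it was highest in basal cells, at 31.5 CPM (25.8 to 38.1) in WT and 41.5 CPM (36.2 to 47.3) in Card14KI, and lowest in granular cells, at 17.6 CPM (13.6 to 22.5) and 20.6 CPM (16.7 to 25.2). Spinous cells lay between, at 22.7 and 27.5 CPM. The cells between the basal and spinous gates, outside these 3 layers, were at 37.6 and 44.4 CPM. They were unlike cells: in WT their median basal and spinous scores were 0.248 and 0.238, and in Card14KI 0.758 and 0.765. Their median depth was 9016 UMIs in WT and 50197.5 UMIs in Card14KI. The ratio between libraries was 1.32 (1.04 to 1.67) in basal cells, 1.21 in spinous and 1.17 (0.845 to 1.63) in granular cells, and with clusters in place of gates the basal ratio was 0.519, the opposite direction, and the granular one 2.37 (7.14 and 16.9 CPM). The counting intervals of spinous cells (16.3 to 30.8 and 22.5 to 33.3 CPM) overlapped those of both other layers. The co-receptor gene Il1rap was instead highest in granular cells, with 10.4 and 18.3 CPM in basal, 16.0 and 12.6 CPM in spinous and 41.3 CPM (35.0 to 48.5) and 57.0 CPM (50.4 to 64.2) in granular cells. Its granular ratio was 1.38 (1.13 to 1.70). Upper hair follicle cells had Il1rl2 at 33.9 and 37.0 CPM and Il1rap at 15.2 and 13.2 CPM.

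Most Il1rl2 transcripts of the kept cells were in fibroblasts, 66.3% in WT and 53.6% in Card14KI. The level was 64.9 CPM (61.2 to 68.8; 1134 UMIs) in WT and 115 CPM (107 to 122; 895 UMIs) in Card14KI, a ratio of 1.76 (1.62 to 1.93). A UMI was detected in 35.4% and 40.6% of fibroblasts, and in 13.1% and 20.1% after thinning, a difference of 7.06 points (4.40 to 9.79). Lymphocytes, the background class for this gene, had 2 and 1 UMIs in 252 and 118 cells. Of the 4 members with 10 or more UMIs in fibroblasts 3 were past 1.5-fold higher, where 8.33% of 14424 genes were (20.5% were lower). Besides Il1rl2 these were ligand genes near the floor, Il1f6 with 6 and 11 UMIs and Il1f5 with 8 and 9. Il1rap was at 22.2 and 28.9 CPM in fibroblasts, a ratio of 1.31 (1.10 to 1.54).

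The fibroblasts were not the same mix in the 2 libraries. Among 11 fibroblast clusters, Il1rl2 was highest in cluster 5, led by Smpd3, Cxcl13 and Ptgs2, at 164 CPM (143 to 188) in WT and 176 CPM (160 to 193) in Card14KI, a ratio of 1.07 (0.908 to 1.27). That cluster was 7.20% of WT and 23.3% of Card14KI fibroblasts. Cluster 3, which shares its leading genes Smpd3, Akr1c18 and Cxcl13, followed at 139 and 142 CPM. Cluster 10, led by Crabp1 and Lrrc15, had the lowest level at 19.7 and 29.0 CPM and held 213 WT but 20 Card14KI cells, and cluster 1, which the gate counts as fibroblast and which is led by Igkc, Spp1 and Mmp9, held 274 and 9. The ratio interval lay above 1 in 2 of the clusters: cluster 4, at 53.6 and 108 CPM (ratio 2.01, 1.39 to 2.90), and cluster 11, at 49.8 and 81.6 CPM (ratio 1.64, 1.006 to 2.66). When each cluster had the same weight in both libraries, the Il1rl2 ratio of all fibroblasts was 1.15 instead of 1.76. No interval was computed for this ratio. The Card14KI levels that it takes for clusters 1 and 10 rest on 4 UMIs in 9 cells and 7 UMIs in 20 cells. The 7 fibroblast markers also differed, summing to 44402 and 29039 CPM. Among fibroblasts B or plasma cell markers summed to 204 and 6.91 CPM, neutrophil markers to 144 and 24.2 CPM and pericyte or smooth muscle markers to 362 and 46.2 CPM. The part of these markers was not tested. Il1rap was distributed differently: it was highest in cluster 2, led by Igfbp2 and Aldh3a1, at 48.5 and 61.3 CPM, and its ratio interval lay above 1 in cluster 10 (17.3 and 49.6 CPM, ratio 2.88, 1.40 to 5.43, with 12 Card14KI UMIs in 4 of 20 cells) and cluster 11 (16.2 and 40.8 CPM, ratio 2.52, 1.15 to 5.75).

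**Figure D5:**
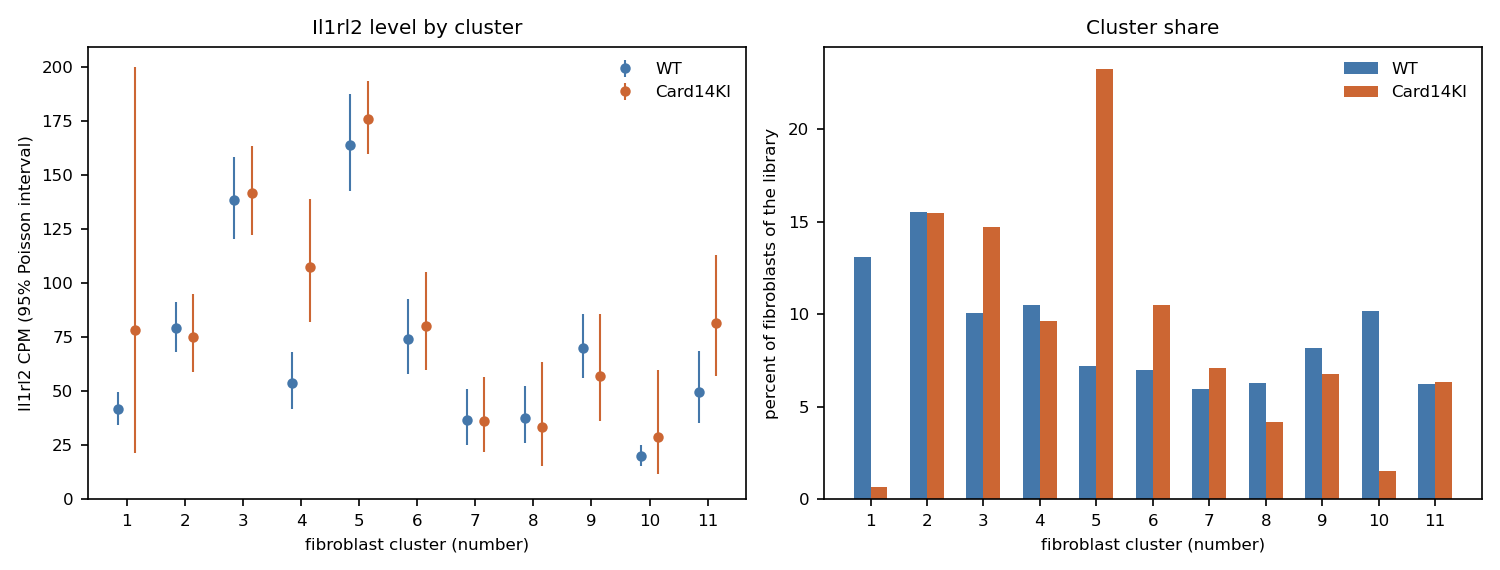
Left, Il1rl2 level (CPM, 95% Poisson interval) in 11 fibroblast clusters of the WT (blue) and Card14KI (orange) libraries; right, the percent of each library's fibroblasts in the cluster. Clusters 3 and 5 carry the highest levels in both libraries, and cluster 5 is 7.20% of WT and 23.3% of Card14KI fibroblasts.

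Outside the skin's structural cells, neutrophils stood out for Il1f9. These cells were few and shallow, 43 in WT and 28 in Card14KI with a median of 1750 and 1964 UMIs, yet they held 36 and 41 Il1f9 UMIs, or 478 CPM (334 to 661) and 711 CPM (510 to 965). A UMI was detected in 48.8% and 53.6% of them. The ratio between libraries was 1.49 (0.928 to 2.40), so a difference was not detectable at this depth. Il1f6, Il1f8 and Il1f10 had no UMI in neutrophils of either library, where the exact Poisson interval of a count of 0 reaches 48.9 CPM in WT and 63.98 CPM in Card14KI. In these neutrophils granular markers summed to 398 and 260 CPM, fibroblast markers to 411 and 191 CPM and mononuclear phagocyte markers to 4484 and 4735 CPM, and their part in the Il1f9 level was not tested. Il1rap was high in neutrophils too, at 279 CPM (172 to 426; 21 UMIs) and 399 CPM (253 to 599; 23 UMIs), the highest of the classes drawn in the plot of levels by class, while Il1rl2 had 0 and 1 UMI. Langerhans cells, the dendritic cells of the epidermis, had 4 and 9 Il1rap UMIs in 23 and 12 cells and 2 and 0 of Il1rl2. Mononuclear phagocytes had 10 and 4 Il1rl2 UMIs and 19 and 10 of Il1rap, and neither of these 2 members was past 1.5-fold, where 11.8% of 8408 genes were higher and 20.9% lower. In lymphocytes no member reached 10 UMIs (9.91% of 8001 genes were 1.5-fold or more higher and 26.2% lower).

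Genes downstream of the receptor were read in granular cells, the layer with most ligand. The signalling list (Myd88, the IRAK and TAB genes, Traf6, Map3k7 and Ikbkg) had 9 of 10 genes with 10 or more UMIs, of which 2 were 1.5-fold or more higher and 0 lower, beside 19.0% and 8.23% of all genes. Its median log2 ratio was 0.06, close to the 0.09 of all genes. Irak2, a kinase of the receptor complex, was at 22.9 and 38.7 CPM (ratio 1.69, 1.30 to 2.22) and the adaptor gene Myd88 at 22.3 and 34.4 CPM (ratio 1.54, 1.18 to 2.04). Irak4 (ratio 0.691, 0.337 to 1.40) and Tab2 (ratio 0.892, 0.785 to 1.014) were the lowest, with intervals that included 1. The CARD14 complex list had 1 of 6 genes past 1.5-fold higher and a median of -0.05. Card14 itself was at 78.8 and 76.5 CPM, Bcl10, its signalling partner, at 63.9 and 84.2 CPM, and Rnf31, with the 1 call, had 4 and 14 UMIs. Malt1 and Traf3ip2 were lowest, with ratios of 0.895 (0.666 to 1.204) and 0.886 (0.605 to 1.30).

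The list of restraint genes mixes brakes on signalling with genes that block IL-1 itself (Il1rn and Il1r2). Most of its genes were higher in Card14KI granular cells. Past 1.5-fold higher were 5 of 7 and past it lower 0, beside 19.0% and 8.23% of all genes, and the median log2 ratio of the list was 0.78. Irak3, a kinase-like brake on the receptor complex, was at 13.5 and 40.4 CPM (ratio 2.99, 2.18 to 4.19). Tnfaip3, Il1rn (the IL-1 receptor antagonist gene) and Tollip were also past this fold, at ratios of 1.75, 1.75 and 1.60. Median-of-ratios scaling, a factor of 1.11, takes Tollip below 1.5-fold. Zc3h12a, the gene of the RNA-degrading protein regnase-1, was at 60.3 and 112 CPM (ratio 1.86, 1.58 to 2.18). Sigirr, an orphan receptor that dampens signalling, had a ratio of 1.03 (0.501 to 2.16), which median-of-ratios scaling turns below 1, and the decoy receptor gene Il1r2 one of 1.46 (1.27 to 1.68). In spinous cells 2 of 7 and in basal cells 5 of 6 measured restraint genes were past this fold higher, beside 11.1% and 9.97% of all genes.

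Of 18 genes known to be raised by IL-36 in keratinocytes, 13 had 10 or more UMIs in granular cells. Past 1.5-fold higher were 11 of these and past it lower 0, beside 19.0% and 8.23% of all genes, and their median log2 ratio was 0.95. S100a8, a subunit of the alarmin calprotectin, gave 2 WT and 706 Card14KI UMIs, for a ratio of 273 (75.2 to 2255), and 153 of the 706 were in 1 cell. Its partner S100a9 stood at 29.2 and 366 CPM, and 1 cell gave 48 of the 106 WT UMIs. Neutrophils express both genes strongly; 7 neutrophil markers summed to 8.54 and 12.5 CPM in granular cells, with 4 and 3 of the 7 detected, and their part was not tested. The chemokine genes Ccl20 (588 and 490 CPM, ratio 0.833) and Cxcl1 (21 and 23 UMIs, ratio 0.846, 0.447 to 1.61) were lowest. With members of 1 UMI or more the median was 0.77, and with a pseudocount of 1 CPM it was 1.78. Other cytokines, such as IL-17, raise many of these genes too. This list, as the other lists, was chosen with earlier results of these data known, so its count is a description only. In spinous cells 9 of 11 and in basal cells 8 of 12 measured genes were past 1.5-fold higher, and 1 and 2 past it lower, beside 11.1% and 9.15% of all genes in spinous and 9.97% and 17.0% in basal cells. In fibroblasts 9 of 15 were 1.5-fold or more higher and 6 lower, beside 8.33% and 20.5%.

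IL-36 agonists need to be cut by proteases to be active, and the genes of the list of processing enzymes and inhibitors were sparse. Elane and Ctsg, neutrophil protease genes, had no UMI in granular cells of either library, and Ctss had 1 and 4. Ctsl was at 1698 and 1643 CPM, and the protease inhibitor gene Slpi at 113 and 231 CPM. In WT 1 cell gave 317 of the 412 Slpi UMIs. These 2 were the genes with 10 or more UMIs, and 1 of them (Slpi) was past 1.5-fold.

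The genes most like each ligand gene were sought by Pearson correlation of log2(CPM + 10) over 20 points, 10 classes in each of the 2 libraries, among 6261 genes at 50 CPM or more in some class. The points share their libraries and the granular peak dominates them, so the values are a description. Neutrophils are absent from these points, because their 28 Card14KI cells fell short of the minimum of 30. Il1f9 and Il1rap were highest in neutrophils among the plotted classes, so the correlations of these genes do not cover that peak. For Il1f6 the closest were Defb14 (r 0.992), a beta-defensin gene, then Il1f10, Dnase1l2, Prss27 and Acp7. For Il1f8 they were Lce6a (r 0.991), Tead4, Tmprss11f, Acp7 and Atg9b, and for Il1f9 Trex2 (r 0.990), Calcb, Sdr9c7, Alox12b and Kprp. The closest to Il1f5 were Cldn23 (r 0.991), Cnfn, Nccrp1, Lypd5 and the transglutaminase gene Tgm1, of which Nccrp1 (as Kprp above) is among the granular markers. Il1f6 had an r of 0.967 with Il1f8, 0.975 with Il1f9 and 0.906 with Il1f5. Against the receptor genes it was 0.062 with Il1rl2 and 0.722 with Il1rap.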

How the data were processed

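What the authors deposited for each mouse is a table of raw UMI counts, genes by called cell barcodes, with no normalization. Counting used Cell Ranger 6.0.2 with mm10 per the submitters' processing notes, but Cell Ranger 5.0.0 per the file headers. Coordinates are from GENCODE vM21 (GRCm38).

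Barcodes with under 500 genes or 20% or more mitochondrial UMIs were removed (681 WT and 435 Card14KI). Scrublet's automatic threshold marked 2 and 4 cells and was not used; instead the highest scores were removed at 0.8% per 1000 barcodes (174 and 78). Cells were gated by the mean scaled level of fixed marker genes: a lineage score of 0.3 or more, 0.1 above the next, then a granular score of 0.35 or more, and a difference of 0.15 between spinous and basal scores. The gate thresholds were set after the cells, but not the IL-36 values, were seen; 19 WT and 37 Card14KI cells lay within 0.05 of the granular threshold. Of the keratinocytes, 54 and 76 lay between the basal and spinous gates, and 349 and 169 cells in all had no class. The names are rebuilt from markers and can differ from those of the study.

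UMIs were summed per class and library and scaled to CPM. Intervals (95%) are exact Poisson for levels, conditional binomial for ratios, Clopper-Pearson for shares and Newcombe for differences of shares, and cover counting error only. Log2 ratios are of CPM + 10. A floor is 3 counts. Clusters were made with Leiden (scanpy 1.11.5, leidenalg 0.10.2; 2000 variable genes without IL-36 genes, 30 components, 20 neighbours, resolution 1). The fold rule was tested on simulated data. Alternatives changed the cell filter, doublet removal, gates or clusters, scaling, count filter, pseudocount and weight of each cell, and left out the top cell of each library. Of the other lists, the 2 genes with the highest and the 2 with the lowest granular log2 ratio were named, among those with 10 or more UMIs; further names were chosen after their values were seen. The genes and lists were chosen with earlier results of these data known.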

Additional observations from a re-analysis of the deposited data

Results flagged for a closer look

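Some values lie in barcodes outside the classes compared. Among barcodes below the cell filter, Il1f6 had 4 UMIs in WT and 18 in Card14KI, 3.97 and 15.1 CPM, a ratio of 3.81 (1.26 to 15.5). Among barcodes removed by doublet score (174 WT and 78 Card14KI), 5 members had ratio intervals above 1: Il1f6 at 1.79 (1.45 to 2.23), Il1f9 at 1.70 (1.25 to 2.32), Il1f5 at 2.15 (1.84 to 2.52), Il1f10 at 2.59 (1.69 to 4.03) and Il1rl2 at 1.47 (1.07 to 2.0). The share of all genes with such intervals was not computed for these barcodes. With these barcodes kept in the gates, none of the members' ratios recomputed that way turned direction. In cells that took no class, Il1rap had 27 and 78 UMIs, 10.6 and 39.4 CPM, a ratio of 3.72 (2.37 to 6.0), and these UMIs lay in 21 and 30 cells.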

How the results depend on the processing

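Of 215 values computed with another choice, 185 stayed close to the reported one, 27 moved and 3 turned direction. The cause was not tested. For a ratio, close means a shift of at most 50% of the log2 width of its counting interval, which is wide for sparse genes. Spinous Il1f6 thus counts as close at log2 ratios of 0.67 and 0.14. A turn of a ratio was counted only where its reported interval left out 1. Leaving out cycling cells could not change granular or spinous values, as these classes held 0 of them. All 3 turns of direction came with clusters in place of gates: log2 ratios of -0.67 for Il1f5 in the upper hair follicle, -0.56 for Il1rl2 and -0.18 for Il1rap in basal cells. In granular cells (66 and 74 with clusters, 119 and 172 with gates) this choice gave log2 ratios of 1.21 for Il1f6, -0.10 for Il1f8, 0.69 for Il1f9 and 0.91 for Il1f5. Median-of-ratios scaling gave 0.94 for Il1f6, 0.27 for Il1f9 and 0.32 for Il1f5. A granular score without Lce1c and Lce1m gave 0.99 for Il1f6 and 0.37 for Il1f5, and the same weights of score ranges 1.26 for Il1f6, -0.20 for Il1f8 and 0.61 for Il1f9. With each cell weighing the same, Il1f8 was at -0.24 and Il1f5 at 0.55. Fibroblast Il1rl2 was at 0.88 with median-of-ratios scaling, 0.58 with cells weighing the same and 0.18 with the same cluster weights. The choices without Lce1c and Lce1m, with the same score ranges and with the same cluster weights were added after seeing the data. Genes 1.5-fold or more higher and lower in granular cells numbered 1890 and 817; these were 4048 and 2577 with no count filter and 896 and 271 with 50 or more UMIs. The stricter cell filter left 0 neutrophils. No paired analysis was possible because each genotype had 1 library. Few and shallow cells limit the neutrophil values (43 and 28 cells), and low UMI sums limit the ratios of ligand genes in basal and spinous cells.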
